A study of Mus musculus with 18 samples.

Results

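The regions described here are stretches of open chromatin that hematopoietic progenitor cells (HPC) of wild-type mice had in common with Kmt2c knockout hematopoietic stem cells (HSC), and that were missing from each of the 3 peak lists of wild-type HSC. Open chromatin was measured by ATAC-seq, in which the Tn5 transposase cuts accessible DNA, and the data are 1 list of peaks per group of samples. Overlapping peaks of a list were merged into regions. A wild-type HPC region was taken when it overlapped, by at least 1 bp, a region of the knockout HSC list and no region of the wild-type HSC, vehicle HSC or 5-fluorouracil HSC list. This gave 303 of the 65832 wild-type HPC regions, or 0.46%, out of 358828 regions in the 6 lists together. The regions were chosen by the peak calls of these 5 lists, so their presence in knockout HSC and absence from the 3 wild-type HSC lists describe the choice and are no finding.

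The series held 18 mouse samples in 6 groups. In the knockout, both floxed Kmt2c alleles (Kmt2c f/f) were cut by Vav-Cre, a recombinase that is active throughout the blood lineage, so the labels' Kmt2c -/- refers to blood cells and not to the whole animal. Knockout HSC and knockout HPC came from mice 8 weeks old, with 2 samples each, and untreated wild-type HPC and HSC of the same age had 4 and 2 samples. The other wild-type HSC were from mice 16 weeks old: 4 samples after 5-fluorouracil at 150 mg/kg, given every 3 weeks for 3 rounds, and 4 samples after vehicle (PBS) on the same schedule. The labels used here give neither the strain nor the surface markers of the sorts, and they do not say whether samples were separate animals. Samples of a group shared 1 list, so there was no spread between replicates and no test between groups could be made; shares of regions carry 95% Wilson intervals, which cover counting error only, and neighbouring regions are not independent.

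HSC sit at the top of blood formation, divide rarely and keep the capacity for self-renewal, whereas HPC divide more often and are on the way to mature blood cells. Kmt2c, also called MLL3, is a methyltransferase that places monomethyl marks on lysine 4 of histone H3, chiefly at enhancers, which are regulatory DNA stretches that act on genes from a distance. The drug 5-fluorouracil kills dividing cells, and surviving HSC then enter the cell cycle to refill the blood. Much of what sets cell types of the blood apart in ATAC-seq lies at enhancers away from gene starts.

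The lists differed in depth, and this touches every comparison here. The reads over a summit and their local background were recovered from each peak's fold enrichment and −log10 p. Sequencing depth itself was not counted, and the background typical of a whole list was taken as a measure of it. This background was 1.51 reads in knockout HSC, 1.91 in knockout HPC, 13.0 in 5-fluorouracil HSC, 13.7 in vehicle HSC, 1.38 in wild-type HSC and 3.24 in wild-type HPC. The regions are missing from 3 of these lists. By this measure, the 5-fluorouracil and vehicle lists were 8.57 and 9.08 times as deep as the knockout HSC list, and the wild-type HSC list 0.911 times as deep. As a check of the labels, a region lay within 1 kb of an end of 25 of 30 stem cell genes in knockout HSC, 22 in knockout HPC, 30 in each 16-week list, 24 in wild-type HSC and 24 in wild-type HPC. Of 20 myeloid progenitor genes, 11 had such a region in knockout HSC, 13 in knockout HPC, 13 in 5-fluorouracil HSC, 14 in vehicle HSC, 10 in wild-type HSC and 15 in wild-type HPC. Of 10 macrophage and monocyte marker genes, 6 had one in knockout HSC, 4 in knockout HPC, 4 in each of the 3 wild-type HSC lists and 5 in wild-type HPC, and of 9 neutrophil marker genes, 2, 2, 1 and 4 in the same order. Accessibility at a gene does not give its expression, so the labelled cell types could not be checked further.

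A total of 8 of the 303 regions reached across the annotated start of a protein-coding gene. For these, the sequence before the start could be read from RefSeq (GRCm38.p6, the build of the lists, also called mm10). The 250 bases before 4 of those starts are printed 5′ to 3′ along the gene's strand. Trem1, a receptor of neutrophils and monocytes that amplifies inflammation, and S100a8, a subunit of the neutrophil protein calprotectin, are shown because they are genes of mature myeloid cells. Ifit1bl1 and Lgr6, a receptor for R-spondins, are shown because they are the lowest of the 8 in GC content and the highest, with 39.6% and 65.2%. Capitals mark the core GAGGAA or its reverse complement TTCCTC, which the factor PU.1 can bind. Motifs were counted over whole stretches, parts of which can lie outside the region. In the S100a8 stretch, the marked site farther from the start lies outside the region and the nearer one inside it.
Trem1 (chr17:48232489-48232738, plus strand, of which 250 bases lie in the region): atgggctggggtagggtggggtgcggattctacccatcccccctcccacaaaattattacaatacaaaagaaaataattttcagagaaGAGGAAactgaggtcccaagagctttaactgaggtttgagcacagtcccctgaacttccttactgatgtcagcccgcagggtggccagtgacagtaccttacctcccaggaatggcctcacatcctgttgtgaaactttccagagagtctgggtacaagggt
S100a8 (chr3:90668821-90669070, plus strand, of which 161 bases lie in the region): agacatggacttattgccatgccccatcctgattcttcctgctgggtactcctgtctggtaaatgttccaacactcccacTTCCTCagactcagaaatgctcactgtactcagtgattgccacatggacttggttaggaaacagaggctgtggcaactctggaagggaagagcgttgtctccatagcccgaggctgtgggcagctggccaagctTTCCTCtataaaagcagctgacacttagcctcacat
Ifit1bl1 (chr19:34599428-34599677, minus strand, of which 166 bases lie in the region): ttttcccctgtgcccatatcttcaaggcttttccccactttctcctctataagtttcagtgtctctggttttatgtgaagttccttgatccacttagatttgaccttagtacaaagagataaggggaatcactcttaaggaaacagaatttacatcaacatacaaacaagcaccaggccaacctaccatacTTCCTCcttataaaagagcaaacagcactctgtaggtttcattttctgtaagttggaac
Lgr6 (chr1:135105277-135105526, minus strand, of which 173 bases lie in the region): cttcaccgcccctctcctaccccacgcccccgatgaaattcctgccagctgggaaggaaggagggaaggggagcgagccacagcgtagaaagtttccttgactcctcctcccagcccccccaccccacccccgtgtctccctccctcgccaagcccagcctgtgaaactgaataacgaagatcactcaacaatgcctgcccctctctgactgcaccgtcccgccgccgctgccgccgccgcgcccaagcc
The sequences differ in kind: the Lgr6 stretch holds 16 CG dinucleotides, the Trem1 and S100a8 stretches 2 each and the Ifit1bl1 stretch 0. GAGGAA, on either strand, was in 5 of the 8 stretches, namely those of Ifit1bl1, Mical3, S100a8, Tmem178b and Trem1, and in 22.2% of 21263 RefSeq promoter stretches of the same length. TGTGGT, the core of the RUNX factors, was on either strand in 2 of the 8, before Gm39115 and Tmem178b, and in 12.4% of all stretches. TTGCNNAA, a form of the C/EBP motif, was in 0 of the 8 and in 9.09% of all. These 3 motifs did not overlap each other in these stretches. More motifs than these 3 were looked for, and GAGGAA was the one found in most of the 8 stretches. Others went both ways. The MYB core CNGTTA was in 3 of the 8 and in 17.9% of all, and the GATA core AGATAA in 2 and 8.81%. The ETS core CCGGAA was in 0 of the 8 and in 15.0% of all, and the SP and KLF core GGGCGG in 1 and 42.6%. Such matches describe letters in 8 stretches and are no evidence of binding. Sequence under the other regions, which lie away from gene starts, was not analysed here.

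The 303 regions were among the weaker ones of the knockout HSC list and spread more widely through the wild-type HPC list. Absence from the other HSC lists, 2 of them much deeper, was part of the choice, and weak regions are the ones most easily missed in another list, so these ranks describe what was chosen. Fold enrichment, the peak caller's ratio of signal at a summit to local background in the same list, ran from 2.56 to 22.3 with a median of 9.84 in knockout HSC. In wild-type HPC it ran from 1.96 to 37.0 with a median of 12.5. Because a fold from few reads is compressed, and the lists differ in depth, each region was also ranked within its own list by −log10 p, from percentile 0 for the weakest region to 100 for the strongest. The median percentile was 9.51 in knockout HSC and 34.3 in wild-type HPC. In knockout HSC, 264 of the 303 regions were among the weakest 25% of the list, 157 of them among the weakest 10%, and 3 lay above the middle. In wild-type HPC, 94 lay above the middle and 24 among the strongest 25%. For the other 41601 wild-type HPC regions found in knockout HSC, the median percentiles were 56.1 in knockout HSC and 65.8 in wild-type HPC. Percentiles are ranks within lists of different length and depth and do not give a difference in height between cell types.

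**Figure D1:**
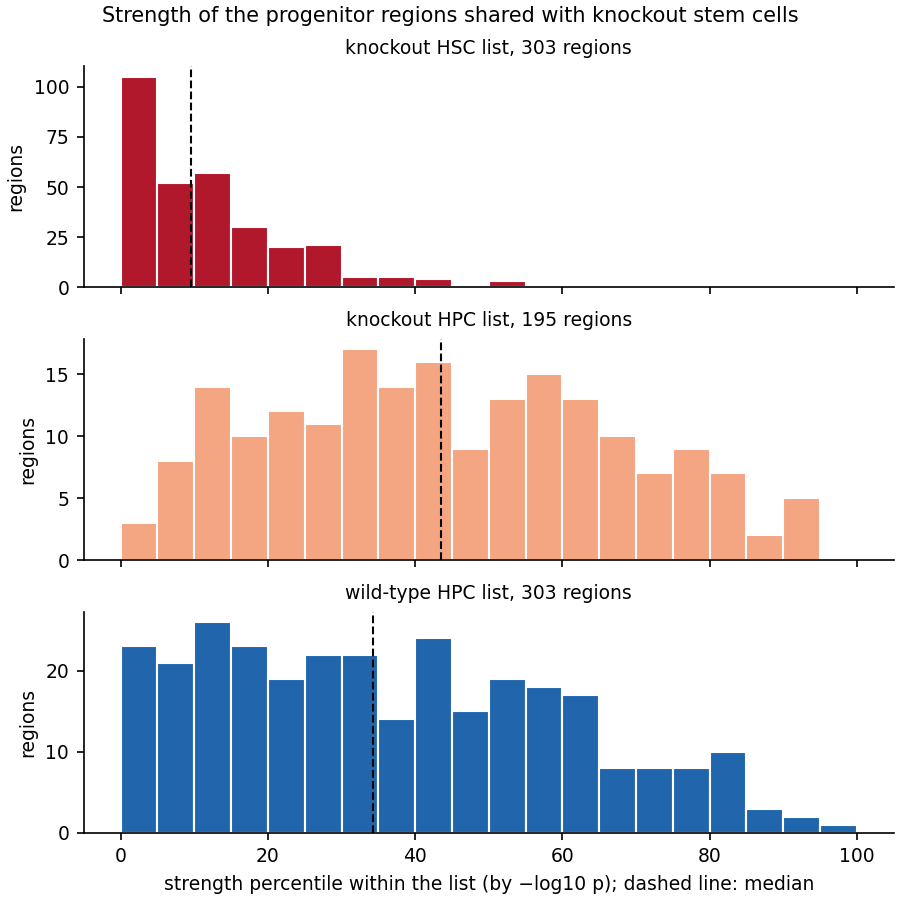
Histograms of the strength percentile of the regions within each list (x axis, by −log10 p, 0 is the weakest region of the list) against the number of regions (y axis), with the median dashed. In knockout HSC the regions pile up at the weak end with a median of 9.51, whereas the 195 found in knockout HPC and the 303 in wild-type HPC spread widely with medians of 43.5 and 34.3.

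In reads, the summits held 15 to 150 in knockout HSC with a median of 28, over a median local background of 1.51. They held 27 to 460 in wild-type HPC with a median of 74, over a background of 4.11. The reads are not scaled to depth, and the wild-type HPC list was 2.14 times as deep as the knockout HSC list by its background. The interquartile range was 24 to 35 reads in knockout HSC and 52 to 112 in wild-type HPC. The calls in knockout HSC therefore rest on fewer reads than those in wild-type HPC.

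Overlap was required by the rule, and within it the summits of both cell types lay close together. The highest summit in knockout HSC lay a median of 12 bp from the highest summit in wild-type HPC, and 287 of the 303 regions, or 94.7%, had both within 50 bp. Among the other 41601 wild-type HPC regions found in knockout HSC, 91.7% did, with a median of 10 bp, so the 303 regions were like shared regions at large in this. The widest separation was 450 bp, in the region nearest to Irf8. The shared stretch was at least 173 bp long with a median of 294 bp, and 0 regions shared fewer than 100 bp, so the 1 bp minimum decided nothing on the side of inclusion. On the side of exclusion, 41601 wild-type HPC regions overlapped both a knockout HSC region and at least 1 of the 3 other HSC lists. In these, the overlap with the best matching excluded list was never under 93 bp. Regions are a median of 305 bp wide in knockout HSC and 371 bp in wild-type HPC. Across the 303 regions, fold enrichment in knockout HSC and in wild-type HPC went together with a Spearman rho of 0.52, which is given without a test because the regions share libraries and both values chose them.

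Most of the regions had no close neighbour in the lists that lack them. The nearest region was a median of 7.31 kb away in 5-fluorouracil HSC, 5.88 kb in vehicle HSC and 13.1 kb in wild-type HSC. Within 1 kb, 27 regions had a neighbour in 5-fluorouracil HSC, 31 in vehicle HSC and 15 in wild-type HSC. Over the 3 lists, 33 had a neighbour within 1 kb, or 10.9% (7.86 to 14.9), 270 had none, and 101 had none within 10 kb. Of the 8388 wild-type HPC regions in no HSC list, 14.3% (13.6 to 15.1) had a neighbour within 1 kb in these lists, and the interval of the 303 regions holds that value. Within 10 kb, 66.7% (61.2 to 71.7) of the 303 regions had a neighbour, against 71.8% (70.9 to 72.8) of the 8388. That value lies just above the interval of the 303 regions, and the intervals overlap. The smallest gap was 40 bp, to a 5-fluorouracil HSC region beside the region near Tmem131. The lists differ in length, with 71363 regions in 5-fluorouracil HSC, 80100 in vehicle HSC and 40073 in wild-type HSC.

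**Figure D2:**
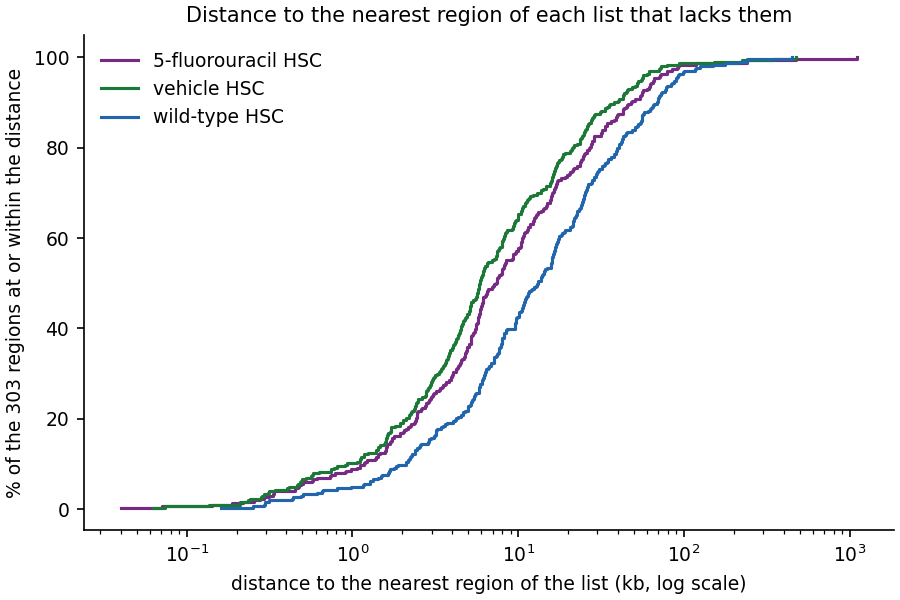
Cumulative percent of the 303 regions (y axis) with a region of each list at or within a given distance (x axis, kb, log scale). The curves for the denser 5-fluorouracil and vehicle lists reach the middle at 7.31 and 5.88 kb, and that for wild-type HSC at 13.1 kb.

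The knockout HPC list took no part in choosing the regions, so it shows whether they were also found in progenitors without Kmt2c. Of the 303 regions, 195 overlapped a knockout HPC region, or 64.4% (95% interval 58.8 to 69.5), and 108 did not. Over all wild-type HPC regions the share was 74.1%, so the regions were found there less often than an average HPC region. The share rose with strength, and of the 33260 regions in all 4 HSC lists, which had a median HPC percentile of 71.7, 92.6% were found in knockout HPC. The 303 regions stood above several fainter patterns. Of the 8388 wild-type HPC regions found in no HSC list, 45.2% (44.1 to 46.3) were in knockout HPC, and their median percentile was 20.3, against 34.3 for the 303. Of the 1014 shared with 5-fluorouracil HSC alone, 51.4% (48.3 to 54.4) were in knockout HPC at a median percentile of 25.2, and of the 2726 shared with vehicle HSC alone 45.2% (43.4 to 47.1) at 22.5. Of the 56 shared with wild-type HSC alone, 57.1% (44.1 to 69.2) were in knockout HPC at 35.4, with an interval that overlaps that of the 303 regions. Regions shared with knockout, 5-fluorouracil and vehicle HSC but missing from wild-type HSC numbered 7313, and 70.7% (69.6 to 71.7) of these were in knockout HPC at 39.3, above the 303 and with an interval that does not overlap theirs. Other patterns of like strength stood near the 303 regions. The share was 62.8% (58.7 to 66.7) at 34.9 for the 554 regions in knockout and vehicle HSC only. For the 142 in knockout and 5-fluorouracil HSC only it was 71.1% (63.2 to 77.9) at 38.2. With wild-type HSC in place of knockout HSC, these were 61.1% (53.3 to 68.4) at 31.0 and 62.5% (45.3 to 77.1) at 35.0. Each of these intervals overlaps that of the 303 regions.

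**Figure D3:**
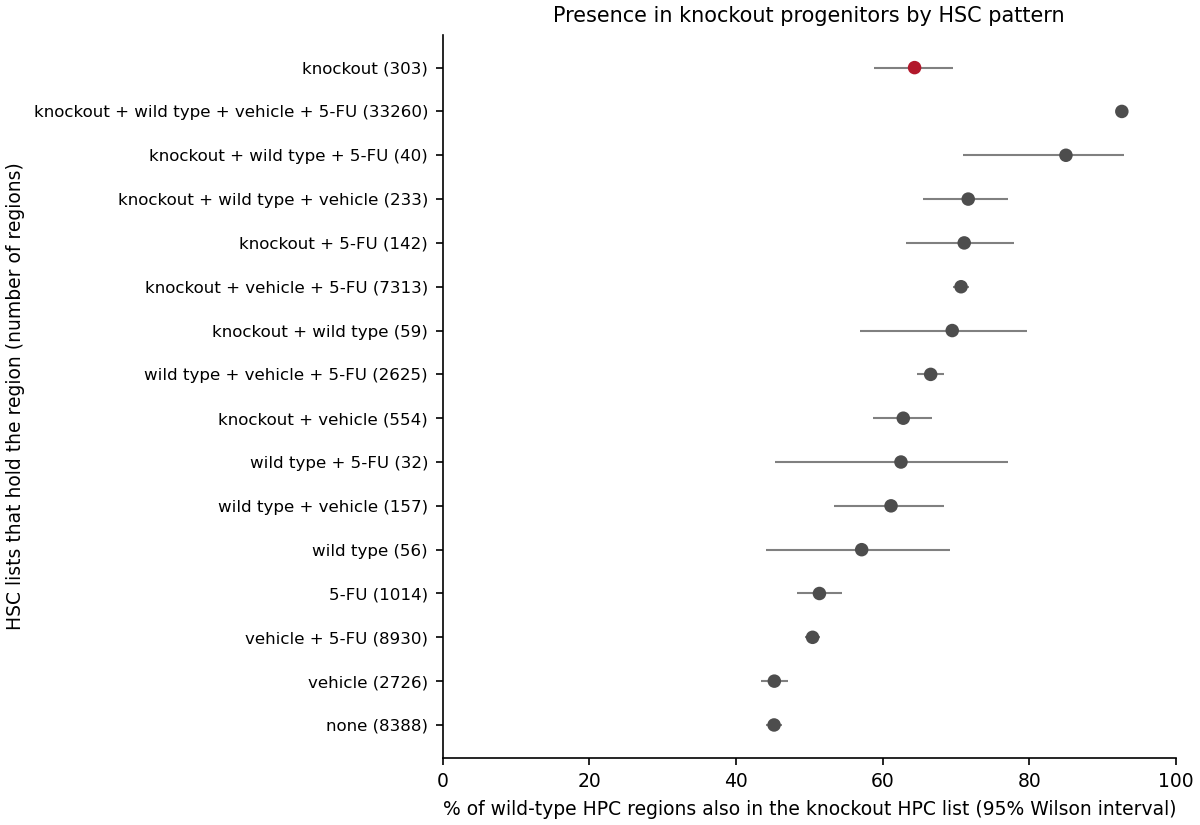
Share of wild-type HPC regions found in the knockout HPC list (x axis, percent, with 95% Wilson intervals) for patterns of presence over the 4 HSC lists (y axis), the 303 regions first. The 303 regions stand at 64.4%, above the 45.2% of regions in no HSC list and below the 92.6% of regions in all 4.

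The gaps to regions in no HSC list and to all wild-type HPC regions narrowed when the wild-type HPC list was divided into 4 equal classes of strength. In the weakest class, 36 of 112 of the regions, or 32.1% (24.2 to 41.3), were in knockout HPC, against 23.2% (22.1 to 24.4) of regions in no HSC list and 29.1% of all wild-type HPC regions of that class. In the next class it was 69 of 97, or 71.1% (61.4 to 79.2), against 65.6% (63.6 to 67.5) and 71.5%. In the third it was 66 of 70, or 94.3%, against 94.2% and 96.1%. In the strongest it was 24 of 24, which is 100% with a lower bound of 86.2%, against 99.5% and 99.9%. In each class the interval of the 303 regions held the value for all wild-type HPC regions of like strength. Against regions in no HSC list, the value of 23.2% in the weakest class lay just under the interval of the 303 regions, and the values in the other 3 classes lay within it.

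**Figure D4:**
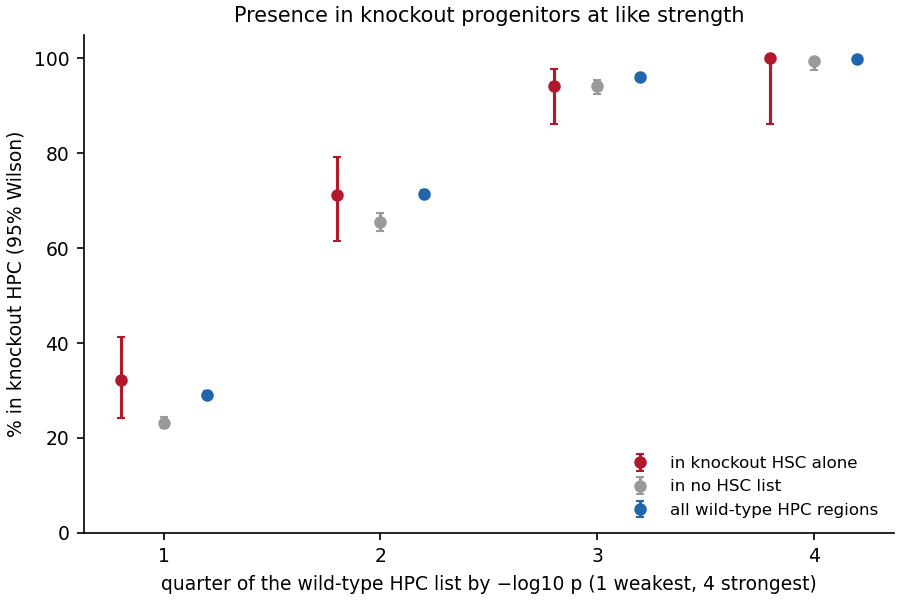
Share found in the knockout HPC list (y axis, percent, with 95% Wilson intervals) by class of strength in the wild-type HPC list (x axis, 4 equal classes, weakest to strongest), for the 303 regions, the regions in no HSC list and all wild-type HPC regions. All 3 rise together, from 32.1% for the 303 regions in the weakest class to 100% in the strongest.

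The 195 regions found in knockout HPC were the higher ones in wild-type HPC. Their median fold enrichment there was 14.8, against 9.59 for the other 108, and their median percentile 46.6 against 14.8. In knockout HSC the 195 and the 108 were closer, with median fold enrichments of 10.1 and 9.40 and median summit reads of 30 and 27. The 195 were higher there too, with a median percentile of 11.2 against 6.37. The 195 regions ran from 3.52 to 34.5 in knockout HPC fold enrichment with a median of 14.5, and their summits lay a median of 8 bp from those in wild-type HPC. Their fold enrichments in knockout HPC and wild-type HPC went together with a Spearman rho of 0.88 over the 195 regions, again a description across regions of shared libraries.

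Counted from the side of the stem cells, similar shares of the regions held by a single 8-week HSC list were in HPC. Of the 623 knockout HSC regions in no other HSC list, 304 were in wild-type HPC, or 48.8% (44.9 to 52.7); counted from the HSC side, these are not exactly the regions counted from the HPC side. Of the 111 wild-type HSC regions in no other HSC list, 57 were in wild-type HPC, or 51.4% (42.2 to 60.4). The intervals overlap, but each list pools its samples and both sets were chosen by absence from the other lists, so the genotypes were not compared by this. Of the 623, 196 were in both HPC lists, 27 in knockout HPC alone and 292 in neither, so that 46.9% (43.0 to 50.8) of the regions found in knockout HSC and no other HSC list were not found in HPC of either genotype. Of the 111, 32 were in both HPC lists, 0 in knockout HPC alone, which allows a share of up to 3.35%, and 54 in neither. The share of each whole HSC list found in HPC was not counted. From the HPC side, 41601 wild-type HPC regions overlapped a knockout HSC region and another HSC list, beside 48620 knockout HSC regions. In all 4 HSC lists were 33260 wild-type HPC regions, beside 40073 wild-type HSC regions. These count HPC regions, and the 41601 and the 33260 ask for different HSC lists. They therefore give no share of a whole HSC list to set 48.8% and 51.4% against.

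By the rule used here, few of the regions lay at gene starts. Of the 293 on chromosomes with annotated starts, 14 lay within 1 kb of the start of a protein-coding gene, or 4.78% (2.87 to 7.86), against a background of 17.8% over all wild-type HPC regions. When windows of 200 bp around the highest summit replaced whole regions, 855 windows were chosen and the share was 26.7%, above the 17.3% of all wild-type HPC windows, so the direction turned. Of these windows, 299 lay in the 303 regions, with 4.50% within 1 kb of a start, and 556 lay in other regions, with 38.7%. With whole regions, the share was 2.31% for regions in no HSC list, 13.0% for the 7313 regions missing from wild-type HSC alone, and 27.0% for regions in all 4 HSC lists. The median distance to a start was 40.1 kb for the 303 regions, 39.1 kb for the regions in no HSC list and 23.6 kb for all wild-type HPC regions. Inside genes lay 162 of the 303, or 53.5% (47.8 to 59.0), against 61.7% of all wild-type HPC regions. For 24 regions the nearest protein-coding gene was farther than 100 kb. Regions shared with a single other HSC list were alike. Within 1 kb of a start lay 3.88% for 5-fluorouracil HSC alone, 4.24% for vehicle HSC alone and 3.85% for wild-type HSC alone. Inside genes lay 54.1%, 54.8% and 51.8% in the same order. In these shares the 303 regions were thus like HPC regions held by any single HSC list, and apart from regions open in every HSC list. Chromosome 9 carried 29 of the regions, or 9.57% (6.75 to 13.4), and chromosomes 8 and 1 carried 27 each, or 8.91% (6.20 to 12.7), against 5.57%, 5.10% and 6.45% of all wild-type HPC regions. These chromosomes were picked out of 21 after their counts were seen.

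The other 279 regions were nearest to 270 genes, and no gene had more than 2 of them. The nearest gene is a label of position and need not be the gene a region acts on. A total of 9 genes had 2 each: Cadm1, Fstl4, Kcnn3, Marco, Rasa3, Slc24a2, Spesp1, Tln2 and Zbtb16. Zbtb16 encodes PLZF, a transcription factor of blood cells, and its intragenic regions at chr9:48762302-48762593 and chr9:48771361-48772003 had fold enrichments of 8.26 and 9.54 in knockout HSC, against 11.0 and 8.25 in wild-type HPC. The first was also in knockout HPC with 9.33, and the second was not. Both regions in Rasa3, which encodes an inhibitor of Ras and Rap, were low, with 6.04 and 6.85 in knockout HSC and 7.29 and 7.71 in wild-type HPC, and neither was in knockout HPC. Both regions in Fstl4 were in knockout HPC, with 19.3 and 15.5, beside 8.75 and 11.9 in knockout HSC and 19.8 and 14.5 in wild-type HPC. Both regions of the pair were in knockout HPC at Fstl4, Slc24a2 and Spesp1, a single one at Kcnn3, Marco, Tln2 and Zbtb16, and neither at Cadm1 and Rasa3.

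Among the 16 gene lists looked at, which cover stem cell and progenitor genes, signalling, chromatin and markers of mature cells, 9 of the 303 regions were nearest to 8 listed genes. This is 2.97% of the regions against 2.72% of all wild-type HPC regions. No region was nearest to a gene of the lymphoid progenitor, interferon, interleukin-1 and TNF, p53 or calcium and kinase signalling lists, nor to the T and NK cell, mature B cell, mast cell or stromal marker lists. These 9 lists held between 0.0243% and 0.655% of all wild-type HPC regions each. The interval for 0 of 303 reaches 1.25% and holds all of these shares, so the absences are no finding. The macrophage and monocyte markers had 3 regions at 2 of 10 genes, or 0.990% of the regions against 0.0425% of wild-type HPC regions. The neutrophil markers had 1 region at 1 of 9 genes, or 0.330% against 0.0197%. These counts of 3 and 1 are too small to weigh, and the presence of Marco regions in knockout HSC was known before the lists were counted here. Presence of mature myeloid cells in the sorted samples was not tested.

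Of the macrophage genes, Marco, a scavenger receptor that binds bacteria, had a region inside the gene and another 24477 bp from it. The outer one, at chr1:120449560-120450061, was among the 10 of highest fold enrichment in wild-type HPC. It had 22 summit reads and a fold enrichment of 9.15 in knockout HSC. In knockout HPC it had 124 reads and 28.1, and in wild-type HPC 202 reads and 32.6. The inner one, at chr1:120474779-120475156, was the other way round, with 32 reads and 13.1 in knockout HSC, none in knockout HPC, and 29 reads and 7.07 in wild-type HPC. Regions nearest to Marco numbered 7 in knockout HSC, 8 in knockout HPC, 3 in 5-fluorouracil HSC, 6 in vehicle HSC, 2 in wild-type HSC and 10 in wild-type HPC. The region inside Adgre1, which encodes the macrophage surface protein F4/80, at chr17:57358300-57358844 had 29 reads and 11.9 in knockout HSC, 84 and 25.1 in knockout HPC, and 135 and 27.5 in wild-type HPC.

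At the gene starts, the Trem1 region (chr17:48232431-48232897), which holds the whole of the stretch printed above, had 38 reads and a fold enrichment of 6.87 in knockout HSC, 279 and 19.9 in knockout HPC, and 376 and 18.4 in wild-type HPC. Its reads in knockout HPC were the highest of the 195 regions there. The S100a8 region (chr3:90668910-90669433) had 22 reads and 8.13 in knockout HSC and 67 and 13.8 in wild-type HPC, and was not in the knockout HPC list. The Ifit1bl1 region, at chr19:34599324-34599593, and the Lgr6 region, at chr1:135105015-135105449, were low in both cell types, with 6.86 and 6.08 in knockout HSC against 7.51 and 5.69 in wild-type HPC, and neither was in knockout HPC. The other starts were those of Gm39115, H4c18, which encodes a histone H4, Mical3, which encodes an actin-oxidising enzyme, and an internal start of Tmem178b. At H4c18 (chr13:21832019-21832268) the fold enrichment was 14.7 in knockout HSC, 16.8 in knockout HPC and 17.4 in wild-type HPC, and the summits in knockout HSC and wild-type HPC lay 0 bp apart. A vehicle HSC region lay 210 bp from the H4c18 region. Of the 14 regions within 1 kb of a start, 7 remained when regions with an excluded region within 1 kb were left out. The other regions within 1 kb lay beside a start rather than across it. Those at Gm31493, Ccdc42 and Aldh8a1 had fold enrichments of 11.5, 9.23 and 11.9 in knockout HSC and 15.7, 12.2 and 9.66 in wild-type HPC. Those at Mmp15, Tmem131 and Six2 were lower, with 7.74, 6.47 and 6.96 in knockout HSC and 6.03, 5.86 and 5.77 in wild-type HPC, and none of these was in knockout HPC.

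The other listed genes with a region were Irf8, Dnmt3a, Mycn, Slamf1 and Itgb3, with 1 each, and their fold enrichments in wild-type HPC ran between 8.47 and 13.0. The region 27120 bp from Irf8, a transcription factor of monocytes and dendritic cells, at chr8:120783814-120784601 had fold enrichments of 9.15 in knockout HSC, 9.20 in knockout HPC and 9.09 in wild-type HPC. It held 2 peaks in wild-type HPC. The knockout HSC summit lay 450 bp from the higher of these and 9 bp from the other, whose fold enrichment was 8.81. The region 14493 bp from Dnmt3a, a DNA methyltransferase, at chr12:3928936-3929216 had 12.01 in knockout HSC, 11.3 in knockout HPC and 13.0 in wild-type HPC. The region 30384 bp from Mycn, a transcription factor of growing cells, at chr12:12905368-12905709 had 11.9, 12.02 and 10.7 in the same order, and a vehicle HSC region lay 63 bp from it. Slamf1 encodes CD150, a surface marker of HSC, and the region inside it at chr1:171785922-171786330 had 8.31 in knockout HSC and 9.38 in wild-type HPC and was not in knockout HPC. Itgb3, an integrin of megakaryocytes and platelets, had an intragenic region at chr11:104638889-104639277 with 9.55 in knockout HSC, 8.52 in knockout HPC and 8.47 in wild-type HPC.

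The regions of highest fold enrichment lay near genes of varied function. The highest in wild-type HPC lay 11324 bp from Aldh1a3, an enzyme of retinoic acid synthesis, at chr7:66438801-66439187. It had 48 summit reads and a fold enrichment of 17.8 in knockout HSC, 244 and 31.9 in knockout HPC, and 460 and 37.0 in wild-type HPC. The nearest region of an excluded list was 3658 bp away, in vehicle HSC. Regions near Gm15448 (chr7:3799959-3800413), inside Spag6, which encodes a protein of the sperm flagellum (chr2:18724503-18724906), and near Cfap46, a protein of cilia (chr7:139595779-139596218), followed. Their fold enrichments were 17.1, 12.3 and 13.9 in knockout HSC, 34.5, 30.5 and 29.9 in knockout HPC, and 35.2, 33.0 and 32.7 in wild-type HPC. The others of the 10 highest were the outer Marco region and regions nearest to Tars, a threonyl-tRNA synthetase, Ncbp1, a subunit of the mRNA cap-binding complex, Slc44a3, a choline transporter-like protein, Ptpn11, which encodes the phosphatase SHP2 of growth factor signalling, and Cdyl2, a chromodomain protein. Their fold enrichments ran between 8.35 and 13.9 in knockout HSC, 23.1 and 29.9 in knockout HPC, and 28.2 and 32.6 in wild-type HPC. Each of the 10 was in knockout HPC.

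**Figure D5:**
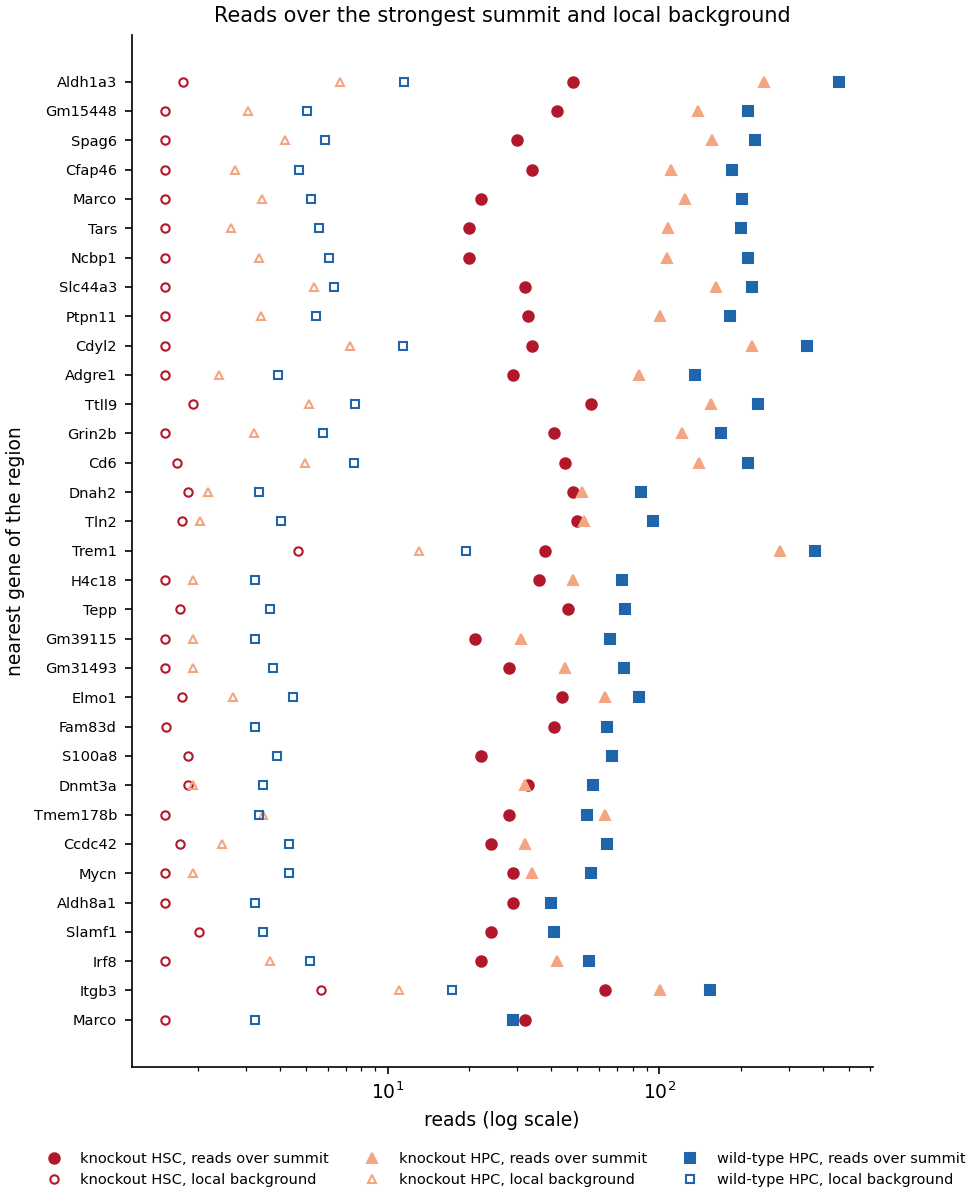
Reads over the summit (filled) and local background (open) on a log x axis, not scaled to depth, in knockout HSC, knockout HPC and wild-type HPC for the regions named by their nearest gene (y axis). Knockout HSC is lowest and wild-type HPC highest, as at Aldh1a3 with 48, 244 and 460 reads, except at Dnmt3a, Tmem178b and the lower Marco row, and a row without a knockout HPC point was not in that list.

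The 10 regions highest in knockout HSC, among those with a gene within 100 kb, included those at Aldh1a3 and Gm15448 given above, which were higher still in HPC. Of the others, that inside Ttll9, a tubulin-modifying enzyme, at chr2:152985477-152986066 had a fold enrichment of 19.5 in knockout HSC, 25.4 in knockout HPC and 27.1 in wild-type HPC. Inside Tln2, which encodes the adhesion protein talin 2, the region at chr9:67379818-67380537 had 18.6, 17.8 and 19.1 in the same order. Inside Dnah2, a dynein of cilia, the region at chr11:69491675-69492208 had 17.3, 16.7 and 19.95. The region inside Tepp (chr8:95312873-95313196) had 17.3 in knockout HSC and 16.3 in wild-type HPC, and that inside Fam83d, a protein of the mitotic spindle (chr2:158783757-158784347), had 16.6 and 15.3, and neither was in knockout HPC. Cd6, a receptor of T cells, had 17.2 in knockout HSC, 23.6 in knockout HPC and 25.01 in wild-type HPC at chr19:10800955-10801490. Grin2b, a subunit of a glutamate receptor, had 16.7, 29.0 and 25.04 at chr6:135959482-135959995. Elmo1, which acts in cell migration and engulfment, had 16.4, 17.4 and 15.5 at chr13:20286714-20287060. The highest in knockout HSC among all 303 regions, chr9:46482860-46483192, was farther than 100 kb from any protein-coding gene, and its fold enrichments were 22.3 in knockout HSC, 22.9 in knockout HPC and 23.5 in wild-type HPC. The lowest fold enrichments in both lists belonged to the region near Zfp36, an RNA-binding protein that limits inflammation, at chr7:28376353-28376714. It had 150 reads over a local background of 58.0 in knockout HSC, which gives 2.56, and 175 reads over 88.7 in wild-type HPC, which gives 1.96, so its many reads stood over a high local background.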

How the data were processed

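ATAC-seq peaks of 18 mouse samples in 6 groups were used as 1 deposited list per group. Per the submitters' processing notes, Bowtie2, MACS2 and the build mm10 (GRCm38) were used, with versions and thresholds not given in the sources used here; how samples were pooled is not given either. Each peak carries a deposited score (not used), a deposited fold enrichment, which is a ratio to local background, a deposited −log10 p-value and the authors' summit offset in bp. Overlapping peaks were merged into regions, each with its strongest peak's values. Reads over a summit and their background were solved from fold enrichment and −log10 p, as (reads + 1) / (background + 1) and a Poisson tail, within 0.005 in −log10 p. This form is assumed, as the caller's settings are not given; the solver was tested on simulated data, and whole reads were found for all 303 regions. Depth per sample is unknown. Protein-coding genes came from RefSeq GRCm38.p6, with a gene assigned within 100 kb by its body, and starts from its promoter table, which holds starts of 17492 of 21887 genes and none on chromosome 18, where 10 of the regions lie.

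No test was made, since each group has 1 list; shares have 95% Wilson intervals. Among regions with a gene within 100 kb, the rule named the 10 highest in knockout HSC, the 10 highest in wild-type HPC, 8 at a start by height in wild-type HPC, and those at genes of the 16 lists. The other regions at a start, the genes with 2 regions, the region without a gene and that near Zfp36 were named after their values were seen. The sequence rule planned for the strongest regions needed a genome and was replaced by promoter stretches of regions at a start. The regions and lists were chosen with earlier results of these data known. Python 3.11.15, pandas 2.3.3, numpy 2.4.6 and scipy 1.17.1 were used.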

Additional observations from a re-analysis of the deposited data

How the results depend on the processing

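The count was 303 with an overlap of at least 50% of the shorter region or without chromosome Y, 270 with no excluded region within 1 kb, 445 without the 5-fluorouracil list and 362 without the wild-type HSC list. It was 857 without the vehicle list, 855 with windows of 200 bp around summits in place of regions, 917 when every list was cut to its 40073 strongest regions, and 35 when the weakest 25% of the wild-type HPC and knockout HSC lists was removed. The share in knockout HPC, 64.4%, stayed between 61.9% and 66.5% except for 91.4% with the weakest 25% removed, 81.8% with lists of equal length, and 32.1%, 71.1%, 94.3% and 100% within the 4 classes of strength, weakest to strongest. The share within 1 kb of a gene start, 4.78%, was 26.7% with summit windows, which is above the 17.3% of all such windows, 2.68% with no excluded region within 1 kb, 2.86% with the weakest 25% removed and 9.57% when either end of a gene counted, a choice added after seeing the data. The causes were not tested. By nearest gene end, 29 of the 33 named regions kept their gene, and the regions at Grin2b, Tln2, Elmo1 and Tmem178b had none within 100 kb. No replicate could be left out, as each list pools its group. No paired analysis was possible because the result comes from no test and replicates share a list.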

Other observations

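A further 59 wild-type HPC regions were in knockout HSC and wild-type HSC but in neither of the deeper 16-week lists. Their median strength percentile in wild-type HPC was 60.4, against 34.3 for the 303 regions, and 69.5% (56.9 to 79.7) were in knockout HPC. The one of highest fold enrichment in wild-type HPC lay inside Zfp804b at chr5:7277155-7277375. Its fold enrichments were 43.3 in knockout HSC, 43.3 in wild-type HSC and 48.4 in wild-type HPC. The next were near Gm40514, with 34.3, 29.0 and 31.6 in the same order, and inside Zfp932, with 33.5, 30.5 and 31.5 at chr5:109996085-109996825. These were named after their values were seen.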
